A study of Mus musculus with 2 samples.

Results

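Calcium leaves the endoplasmic or sarcoplasmic reticulum through inositol 1,4,5-trisphosphate (IP3) receptors when a Gq-coupled receptor has activated phospholipase C, and a store that runs empty is refilled by store-operated calcium entry. In that process STIM proteins sense calcium inside the store and ORAI proteins form the calcium channel of the cell surface. The 8 genes described here are all known mouse members of these 3 families, Itpr1, Itpr2 and Itpr3 (IP3 receptors), Stim1 and Stim2 (sensors) and Orai1, Orai2 and Orai3 (channels), taken by their GENCODE M21 symbols from 43346 gene identifiers in the tables. In heart muscle the ryanodine receptor RYR2 carries the calcium release of each beat, while IP3 receptors are known for slower signals in atrial cells, in the nucleus and in the cells of the vessel wall.

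The samples were hearts of adult C57BL/6J mice, an inbred strain, at 8 weeks of age, with no transgene or treatment named in the labels and the health state given as unknown. RNA above 200 nucleotides was depleted of ribosomal RNA, selected for poly(A) tails and sequenced as stranded pairs of 76-nucleotide reads in 2 libraries of 1 group, labelled biological replicates 1 and 2. The labels give both biosamples 1 donor record and describe pooled males and females among littermates. With 1 group there is no contrast of conditions, so the results are levels in each library, ratios between genes and the difference between the libraries.

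The libraries stood apart in ways the labels do not state. Replicate 1 held 57464573 estimated counts and replicate 2 held 62912053. Counts of Xist, an RNA of the inactive X chromosome, were 13725 and 13 in replicates 1 and 2, whereas 4 Y-linked genes together had 0 and 2916. The libraries therefore do not hold RNA of 1 mixed pool of males and females, and a difference between them cannot be told apart from one between the sexes. The 5 cardiomyocyte markers Myh6, Tnnt2, Actn2, Ryr2 and Pln were all present, and none was called different at the 2-fold limit. They summed to 5834 and 5511 TPM (transcript abundance corrected for transcript length and library size). Mitochondrial genes, which lower the TPM of all others, held 46.5% and 30.6% of TPM in replicates 1 and 2. On scaled counts the markers' log2 ratios of replicate 1 over replicate 2 ran from -0.41 (Actn2) to 0.72 (Ryr2). The 5 lung epithelium markers summed to 0.33 and 1939 TPM, with Sftpa1 at 0 counts in replicate 1, the 4 red cell markers to 4601 and 61712 TPM, the 3 adipocyte markers to 64.4 and 171.6 TPM and the 3 B cell markers to 2.60 and 10.97 TPM, and all of these were called higher in replicate 2. Called higher in replicate 2 were also Cnn1 among 4 smooth muscle markers, Cd68 among 4 macrophage markers, 2 of 3 T cell markers and 2 of 3 platelet markers, while Snap25 among 3 neuron markers was called higher in replicate 1. These lists summed to 404.84 and 396.36 TPM for smooth muscle in replicates 1 and 2, 30.4 and 48.5 TPM for macrophages, 0.69 and 1.37 TPM for T cells, 24.7 and 54.2 TPM for platelets and 5.87 and 9.08 TPM for neurons. None of the 5 endothelial, 4 fibroblast and 3 pericyte markers was called. Log2 ratios of replicate 1 over replicate 2 also fell with GC content, where the median of 20 bins of tested genes ranged from 0.54 in the most AT-rich bin to -0.61 in the most GC-rich bin. In tissue RNA, fewer cells of a type and less RNA per cell cannot be told apart.

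The members of each family are paralogs, and the stretch of coding sequence most alike between them shows how far their reads can be separated. For the ORAI channels the closest 60 coding bases within single exons lay at chr5:123015507-123015566 on the plus strand in Orai1, at chr5:136161487-136161546 on the minus strand in Orai2 and at chr7:127770157-127770216 on the plus strand in Orai3 (GRCm38). Capitals mark bases that differ from Orai1.
Orai1: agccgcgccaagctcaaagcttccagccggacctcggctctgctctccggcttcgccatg
Orai2: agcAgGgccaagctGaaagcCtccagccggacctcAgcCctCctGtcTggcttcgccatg
Orai3: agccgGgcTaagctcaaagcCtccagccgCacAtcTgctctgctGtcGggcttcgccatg
Orai2 differed from Orai1 at 9 of these 60 bases and Orai3 at 8. Over their aligned coding sequences (GENCODE M21) Orai1 and Orai2 were 73.5% identical, Orai1 and Orai3 72.6% and Orai2 and Orai3 73.1%, and the longest run shared without a mismatch was 29 bases, between Orai2 and Orai3.

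For the IP3 receptors the closest window lay at chr6:108405448-108405507 (plus strand) in Itpr1, chr6:146323129-146323188 (minus strand) in Itpr2 and chr17:27107658-27107717 (plus strand) in Itpr3, with capitals for bases that differ from Itpr1.
Itpr1: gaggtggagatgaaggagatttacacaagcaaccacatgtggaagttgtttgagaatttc
Itpr2: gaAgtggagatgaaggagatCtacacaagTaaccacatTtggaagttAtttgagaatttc
Itpr3: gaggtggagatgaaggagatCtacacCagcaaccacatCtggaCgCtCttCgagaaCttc
Here Itpr2 differed at 5 bases and Itpr3 at 8. Identity over the coding sequence lay between 69.6% and 71.8% for the 3 pairs of IP3 receptors and was 62.1% for Stim1 and Stim2, and the longest shared runs were 32 and 15 bases. All these runs are shorter than the 76-nucleotide reads. The authors' posterior standard deviation of the gene count was 0 for 7 of the 8 members in both libraries and 0.03 counts for Stim1 in replicate 2, so almost no fragment was divided between a member and another gene. GENCODE M21 lists 12 other genes that overlap a member, of which 4 are in the tables, and none of these exceeded 2 counts.

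All 8 genes had counts in both libraries, 7 of them reached 1 TPM in each, all but Orai2, and ORAI channel transcripts were the most abundant of the 3 families. The ORAI genes summed to 25.2 TPM in replicate 1, against 38.7 TPM in replicate 2, the STIM genes to 10.4 and 12.4 TPM and the IP3 receptor genes to 8.50 and 9.18 TPM. The ORAI sum exceeded the STIM sum 2.42-fold and 3.12-fold, and the STIM sum exceeded that of the IP3 receptors 1.23-fold and 1.35-fold, in the same order in both libraries. In level per length the members ran from Orai1 through Orai3, Stim1, Itpr1, Stim2, Itpr2 and Itpr3 to Orai2, by mean TPM. The ranges over the libraries did not overlap between Orai3 and Stim1, between Stim1 and Itpr1, and between Stim2 and Itpr2. The ranges of the other neighbours, Orai1 and Orai3, Itpr1 and Stim2, Itpr2 and Itpr3, and Itpr3 and Orai2, overlapped. Within each library Orai1 was nonetheless above Orai3, and Itpr3 above Orai2. With 2 libraries an exact two-sided sign test cannot go below 0.5, so no test of these orders was made.

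**Figure D1:**
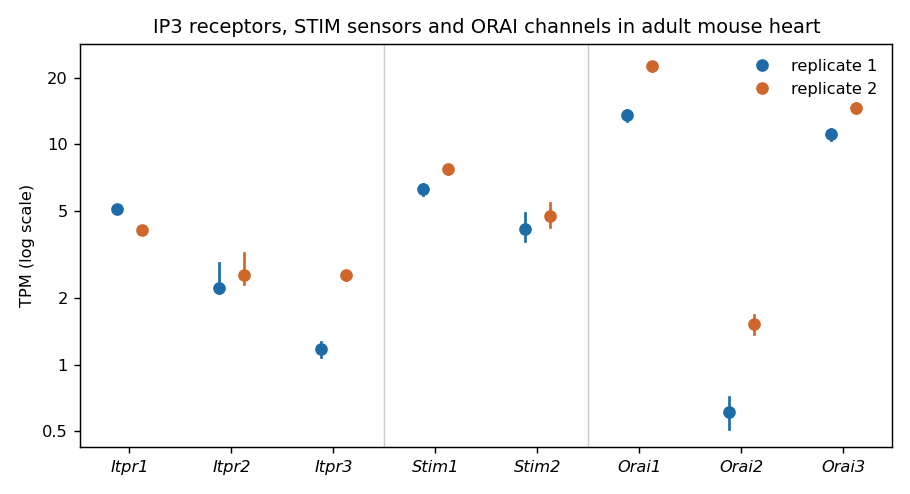
TPM of the 8 members on a log axis, replicate 1 in blue and replicate 2 in orange, with bars for the authors' credibility interval, whose level is not stated. Orai1 and Orai3 lie highest and Orai2 lowest in both libraries, and Itpr1 is the 1 member with the higher TPM in replicate 1.

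Among the IP3 receptors Itpr2, described in other studies as the main form of heart muscle cells, was not the leading form in this tissue RNA. Itpr2 (ENSMUSG00000030287.11, GRCm38 chr6:146108299-146502223, minus strand) measured 2.22 TPM in replicate 1, against 2.55 TPM in replicate 2, from 1304 and 1385 counts. Itpr1 (ENSMUSG00000030102.8, chr6:108213096-108551109, plus strand), known as the abundant form of Purkinje neurons and of smooth muscle, stood at 5.10 and 4.08 TPM, from 3068 and 2585 counts. Itpr2 was thus below Itpr1 in each library, with log2 TPM ratios of Itpr2 over Itpr1 of -1.20 and -0.68 (mean -0.94 ± 0.37, SD, n = 2).

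Itpr3 (ENSMUSG00000042644.8, chr17:27057304-27122223, plus strand), best known from epithelia, measured 1.18 TPM in replicate 1, against 2.55 TPM in replicate 2, from 649 and 1472 counts. In replicate 2 it reached the TPM of Itpr2. Of that Itpr2 level the longest transcripts held 1.20 and 0.54 TPM. The rest lay in shorter transcripts with at most 47.6 counts each. The log2 TPM ratio of Itpr1 over Itpr3 was 2.11 and 0.68, a mean of 1.39 ± 1.01 (SD, n = 2), the widest spread of the 5 ratios taken within families. Of the summed IP3 receptor TPM, Itpr2 held 26.1% and 27.8% in replicates 1 and 2, Itpr3 held 13.9% and 27.8%, and Itpr1 held the rest.

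The IP3 receptors together amounted to 13.2% of the TPM of Ryr2 in replicate 1 and 21.1% in replicate 2. The 3 receptors summed to 8.50 and 9.18 TPM, beside 64.34 and 43.55 TPM for Ryr2, and the receptor sum differed less between the libraries than Ryr2 did.

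The sensors were more even than the channels. Stim1 (ENSMUSG00000030987.4, chr7:102267806-102437319, plus strand), the main sensor of store depletion, measured 6.28 TPM in replicate 1, against 7.70 TPM in replicate 2, from 1329 and 1720 counts. Stim2 (ENSMUSG00000039156.15, chr5:53998499-54121057, plus strand), which responds to smaller falls of store calcium, stood at 4.14 and 4.71 TPM, from 645 and 800 counts. The log2 TPM ratio of Stim1 over Stim2 was 0.60 and 0.71 (mean 0.66 ± 0.08, SD, n = 2), the smallest spread of the 5 ratios. Stim1 held 60.3% and 62.0% of the STIM total. A Stim2 transcript of 652 nucleotides added 0.90 and 1.10 TPM from 25.1 and 32.9 counts, which lowers this ratio. The ratio without that transcript was not taken.

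Orai1 (ENSMUSG00000049686.10, chr5:123015074-123030456, plus strand), the pore subunit of the classical calcium release-activated channel, was the highest of the 8 members in both libraries. It measured 13.55 TPM in replicate 1, against 22.62 TPM in replicate 2, from 1201 and 2015 counts. That placed it above 84.3% and 88.5% of the protein-coding genes of the tables. Orai2 (ENSMUSG00000039747.7, chr5:136147459-136170713, minus strand), known as a subunit that lowers the current of ORAI1 channels in mouse T cells, was the lowest, at 0.61 and 1.53 TPM from 139 and 368 counts. Orai1 over Orai2 gave log2 TPM ratios of 4.47 and 3.89 (mean 4.18 ± 0.42, SD, n = 2).

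Orai3 (ENSMUSG00000043964.10, chr7:127769815-127775150, plus strand), a mammalian-specific member of the family, measured 11.09 TPM in replicate 1, against 14.57 TPM in replicate 2, from 1242 and 1725 counts. It thus came close to Orai1, with log2 TPM ratios of Orai1 over Orai3 of 0.29 and 0.63 (mean 0.46 ± 0.24, SD, n = 2). Orai2 made up 2.42% of the summed ORAI TPM in replicate 1, against 3.95% in replicate 2.

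The ORAI genes span the whole range of levels, so the bases before their RefSeq starts (GRCm38.p6) are shown. Capitals mark matches on either strand to 4 motifs. The GC box is GGGCGG. The E-box is CACGTG. The CCAAT box has the letters of its name, and the TATA box is TATAAA. The windows are chr5:123014824-123015073 (plus strand) for Orai1, chr5:136170714-136170906 (minus strand) for Orai2 and chr7:127769565-127769814 (plus strand) for Orai3. The 57 bases of the Orai2 window that GENCODE M21 places inside the gene are not printed, and the Orai1 window overlaps Gm2479, an antisense gene.
Orai1: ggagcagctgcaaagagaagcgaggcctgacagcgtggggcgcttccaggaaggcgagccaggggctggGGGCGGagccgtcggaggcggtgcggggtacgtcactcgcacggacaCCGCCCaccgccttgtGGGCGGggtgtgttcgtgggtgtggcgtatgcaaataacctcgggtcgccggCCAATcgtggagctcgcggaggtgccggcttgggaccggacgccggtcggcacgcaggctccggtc
Orai2: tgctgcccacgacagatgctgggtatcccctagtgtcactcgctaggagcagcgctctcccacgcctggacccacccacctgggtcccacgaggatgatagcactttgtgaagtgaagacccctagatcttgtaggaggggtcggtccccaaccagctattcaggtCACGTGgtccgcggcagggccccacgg
Orai3: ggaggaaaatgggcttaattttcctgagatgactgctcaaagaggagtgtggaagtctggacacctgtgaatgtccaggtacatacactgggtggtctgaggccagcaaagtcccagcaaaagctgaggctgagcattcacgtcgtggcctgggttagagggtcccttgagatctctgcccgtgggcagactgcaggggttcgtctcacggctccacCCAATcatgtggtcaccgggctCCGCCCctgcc
Counted over the full 250 bases, the Orai1 window held 3 GC boxes and 1 CCAAT box, the Orai2 window 1 GC box and 2 E-boxes, and the Orai3 window 1 GC box and 1 CCAAT box. No match overlapped another, and of those of Orai2 only 1 E-box lies in the printed bases. Their GC contents were 70.8%, 63.6% and 57.2%, against a median of 52.4% over 32851 promoters of the same length, and their CpG counts were 30, 17 and 7. Of those promoters 32.7% held a GC box, 6.02% an E-box, 33.8% a CCAAT box and 12.4% a TATA box. These are matches of letters and not measured sites. Promoter entries were at hand for 7 of the 8 members, all but Itpr1, and of the others only Itpr3 held an E-box (1 match).

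At the transcript level the tables hold 24 annotated transcripts of the members (GENCODE M4), of which 17 were above 0 in both libraries and 4 were at 0 in both. Itpr1, Itpr3, Stim1 and Orai2 have 1 transcript each in that annotation, so their splice forms, among them the long muscle form of STIM1 and the neuronal forms of ITPR1, could not be told apart here. GENCODE M21 lists 13, 2, 9 and 4 transcripts for these genes. In the other 4 members the same transcript led in both libraries.

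Orai1 was divided between a pair of long transcripts whose coding exons, 912 bases in sum, are identical in GENCODE M21. They differ outside the coding sequence, and the first has 3 exons and the second 2. ENSMUST00000051016.4 (1482 nucleotides) held 60.4% of the Orai1 level in replicate 1, against 76.9% in replicate 2, at 8.18 and 17.38 TPM. ENSMUST00000121652.3 (1869 nucleotides) held 38.3% and 20.9%, at 5.19 and 4.72 TPM. The higher Orai1 TPM of replicate 2 thus lay in the first form, ENSMUST00000051016.4. The authors' credibility intervals of that form were 6.97 to 9.32 TPM in replicate 1 and 16.0 to 18.6 TPM in replicate 2 and did not overlap. Those of the other form, ENSMUST00000121652.3, were 4.31 to 6.05 and 3.88 to 5.58 TPM and did. Mitochondrial genes depress TPM more in replicate 1, and these intervals were not rescaled for that. The overlap therefore does not show an equal level of ENSMUST00000121652.3, and overlap after rescaling was not tested. Its estimated counts were 539 in replicate 1 and 518 in replicate 2, the larger library.

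Orai3 was nearly all 1 form, ENSMUST00000061587.8, at 98.4% of its TPM in replicate 1 and 98.3% in replicate 2. Stim2 was led by ENSMUST00000071083.9 (3427 nucleotides), at 56.8% and 69.6%. Next came ENSMUST00000129109.1, of only 652 nucleotides, at 21.7% and 23.3% of TPM but 3.89% and 4.11% of counts. ENSMUST00000152812.1 held 17.4% in replicate 1 and 4.28% in replicate 2. Of 5 Stim2 transcripts, 4 with these 3 among them are no longer in GENCODE M21, so their coding content is not described.

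For Itpr2 the division between forms was uncertain. Its leading transcripts, ENSMUST00000053273.10 and ENSMUST00000079573.8, have nearly the same length (11699 and 11679 nucleotides) and held 40.2% and 39.6% of TPM in replicate 1, and 46.9% and 21.2% in replicate 2. Their posterior standard deviations were 147 and 144 counts in replicate 1 and 285 and 285 counts in replicate 2, beside estimates of 640 and 628, and of 904 and 407, counts. In replicate 1 the credibility intervals of the 2 forms, 0.53 to 1.30 and 0.46 to 1.21 TPM, overlapped, and so did those of the leading form in replicates 1 and 2, the second being 0.39 to 1.73 TPM. Of the shorter Itpr2 transcripts ENSMUST00000131890.3 held 7.78% and 16.0%, ENSMUST00000144557.1 8.13% and 0%, ENSMUST00000155339.1 0% and 8.63% and ENSMUST00000145418.3 4.25% and 5.32%, with at most 47.6 counts.

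**Figure D2:**
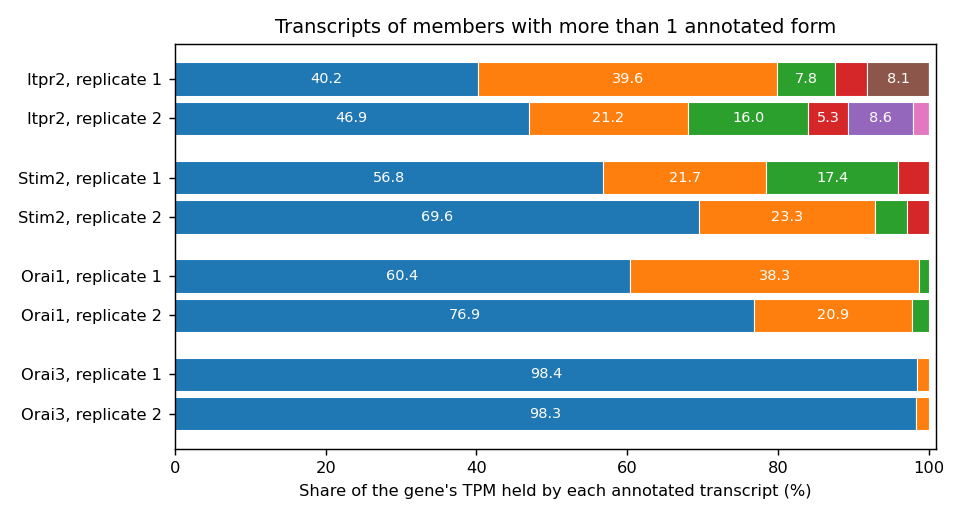
Percent of each gene's TPM held by its annotated transcripts in replicates 1 and 2, for the 4 members with more than 1 transcript in the tables. Colours order the transcripts of a gene by mean share, and the leading blue share is 60.4% and 76.9% for Orai1 and 98.4% and 98.3% for Orai3.

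Between the libraries, 1 of the 8 members was called different, where a call required an adjusted p under 0.05 and a fold of at least 2 in an exact binomial test of the counts with Benjamini-Hochberg adjustment over 16145 genes. That test compares these libraries and not conditions, and it has no replicate check. The background was 11.8% of all genes in either direction, made up of 3.35% with the higher value in replicate 1 and 8.47% with the higher value in replicate 2, so 1 of 8 is close to the background. Orai2 was the member called, 2.26-fold above replicate 1 in replicate 2 on TMM-scaled counts (exact 95% interval 1.85 to 2.76, adjusted p = 6.26e-17, exact binomial test). Of tested genes with counts in both libraries 9.03% lay at least as far from equal. After correction for GC content, which was applied to all genes, Orai2 was 1.89-fold higher in replicate 2 and no member was called, beside 9.25% of all genes. The background was 11.8% with DESeq2 size factors, 12.5% with total counts, 10.7% with no minimum count and 7.02% with a minimum of 100 counts. It was 27.1% with a fold limit of 1.5, where 2 members were called, and 67.8% with no fold limit, where 7 were.

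Itpr3 came next, 1.93-fold higher in replicate 2 (exact 95% interval 1.76 to 2.12) and not called. With scaling by total counts in place of TMM its log2 ratio was -1.05 and it was called. Orai1 was 1.43-fold higher in replicate 2 and Itpr1 1.39-fold higher in replicate 1, both with a smaller fold than the limit. The log2 ratio of replicate 1 over replicate 2 was 0.14 for Itpr2, -0.14 for Stim1, -0.08 for Stim2 and -0.24 for Orai3, and none of these was called. Over the 8 members the median log2 ratio was -0.19, with 2 above 0, beside -0.01 over all tested genes.

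Part of these differences moved with GC content. The longest transcripts of Orai1 and Itpr3 are 58.6% and 57.5% GC, and tested genes of such GC content had median log2 ratios of -0.48 and -0.40. After the correction the log2 ratio was -0.04 for Orai1 and -0.55 for Itpr3, and those of Stim1 and Orai3 turned to 0.10 and 0.01. Itpr1 and Orai2 kept their direction, at 0.42 and -0.92, and Stim2 stood at -0.24 (adjusted p = 0.00487, exact binomial test). The members' median after correction was -0.01. All listed markers of lung epithelium, red cells, B cells and fat were called higher in replicate 2. So were single markers of smooth muscle and macrophages, and 2 of 3 markers each of T cells and platelets. Of the uncalled markers in these lists, Acta2 (smooth muscle), Adgre1 (macrophages) and Cd3g (T cells) had log2 ratios above 0, at 0.35, 0.12 and 0.82. Those of Myh11, Tagln, Csf1r, C1qa and Pf4 were below 0. The part of these cell types in the higher Orai2 and Itpr3 of replicate 2 was not tested.

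**Figure D3:**
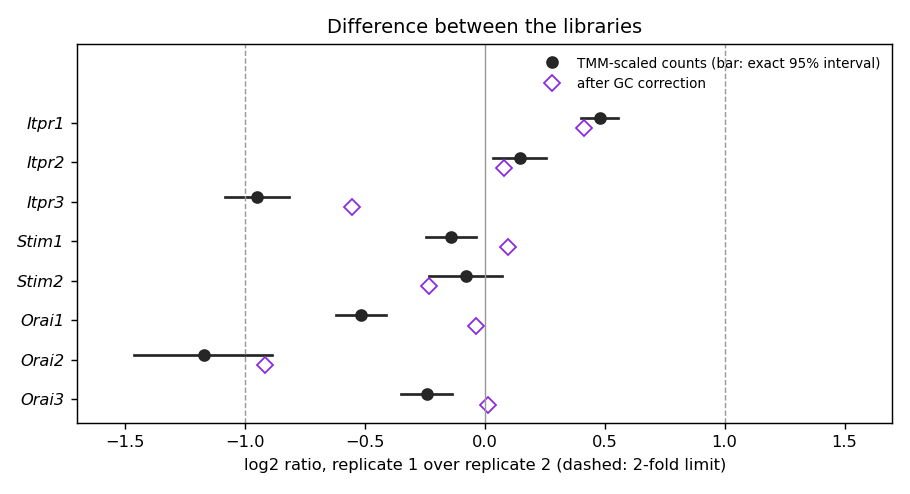
Log2 ratio of replicate 1 over replicate 2 for the 8 members from TMM-scaled counts, with exact 95% intervals for counting error only, and after GC correction (open diamonds). Orai2 lies beyond the dashed 2-fold limit at -1.17 and within it at -0.92 after correction.

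**Figure D4:**
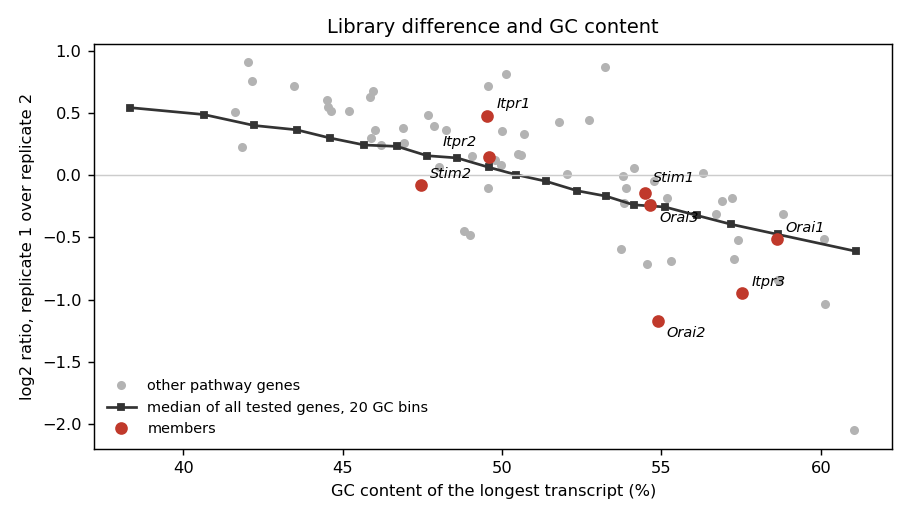
Log2 ratio of replicate 1 over replicate 2 against the GC content of the longest transcript for the members (red) and the other pathway genes (grey), with the median of all tested genes in 20 GC bins as a line; Itprid1, at 0 counts in replicate 1, is not drawn. The line falls with GC content, Orai1 and Orai3 lie close to it and Orai2, Itpr3 and Itpr1 lie off it.

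TPM and scaled counts gave different directions for 1 member. Itpr2 had a higher TPM in replicate 2 (2.22 and 2.55 TPM in replicates 1 and 2) and more TMM-scaled counts in replicate 1 (1304 and 1385 counts, a log2 ratio of 0.14). Its effective length, which follows the estimated mix of transcripts, was 9425 nucleotides in replicate 1 and 8269 in replicate 2. Mitochondrial genes took up 46.5% of TPM in replicate 1, against 30.6% in replicate 2, which lowers the TPM of all other genes more in replicate 1. With TPM rescaled without them Itpr1 came to 9.54 and 5.88 TPM and Orai1 to 25.4 and 32.6 TPM. The order of the libraries turned for 3 members, Stim1 at 11.7 and 11.1 TPM, Stim2 at 7.75 and 6.79 TPM and Itpr2 at 4.15 and 3.68 TPM. Itpr2 was then higher in replicate 1 by TPM as by scaled counts. For Stim1 and Stim2 the directions then differed, since their scaled counts were higher in replicate 2 (log2 ratios of -0.14 and -0.08).

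The other genes of the pathway were present at every step from the Gq protein to the refilling of the store. Of 62 listed genes 61 were in the tables, 49 of them reaching 1 TPM in each library. Itprip was not analysed here. Of 58 tested genes 3 were called with the higher value in replicate 2 and 0 with the higher value in replicate 1, and 55 did not pass. The median log2 ratio was 0.15, beside -0.01 over all tested genes. At the fold limit of 2 the share called lay below the 11.8% of all genes.

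Upstream of IP3, Gna11, one of the Gq alpha subunits, stood at 32.3 ± 5.27 TPM and Gnaq at 4.75 ± 0.43 TPM (SD, n = 2 here and below). The phospholipase C genes of highest level, which make IP3 from a membrane lipid, were Plcg1, activated by tyrosine kinases, at 23.8 ± 0.70 TPM and Plcb4, activated by Gq, at 14.4 ± 3.07 TPM. None of the 4 Gq and 9 tested phospholipase C genes was called. Enzymes that remove IP3 or its products were led by the 5-phosphatase Inpp5a at 69.3 ± 1.65 TPM and the 3-kinase Itpkb at 10.9 ± 0.67 TPM. The 3-kinase Itpka was called 4.15-fold higher in replicate 2 (15 and 73 counts in replicates 1 and 2), and 2.71-fold after GC correction, still called. The other 7 of these enzymes were not called.

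Partners of the IP3 receptors were led by Hspa9, the mitochondrial chaperone that links the receptor to VDAC, at 81.9 ± 19.0 TPM and Ahcyl1, also known as IRBIT, which competes with IP3 for the receptor, at 29.9 ± 4.28 TPM. Of 14 tested partners, Itprid1 was called, with 0 counts in replicate 1 and 47 in replicate 2, and 13 were not called. Against a floor of 3 counts in replicate 1, Itprid1 was 13.3-fold higher in replicate 2. This fold leaves out the counting error of replicate 2. The exact 95% interval of the log2 ratio of replicate 1 over replicate 2 reached up to -3.38, a smaller difference. Among regulators of store-operated entry Saraf, which inactivates it, stood at 96.6 ± 8.54 TPM and Asph, whose locus also encodes junctate, at 62.1 ± 10.7 TPM. Cracr2b, a gene related to a cytosolic regulator of ORAI1, was called 2.05-fold higher in replicate 2 (333 and 801 counts in replicates 1 and 2), and 1.34-fold and not called after GC correction, and the other 12 regulators were not called.

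The store and the downstream factors showed no called gene. Atp2a2, the SERCA pump that refills the store, stood at 1903 ± 196 TPM and Calr, a calcium buffer of the store, at 87.9 ± 8.58 TPM. The NFAT factors, which calcineurin activates when calcium enters, were led by Nfatc3 at 5.72 ± 0.41 TPM and Nfatc2 at 5.14 ± 2.23 TPM. Of the ryanodine receptors Ryr3 stood at 0.74 ± 0.13 TPM beside Ryr2, and Ryr1 had 7 and 4 counts and was not tested.

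**Figure D5:**
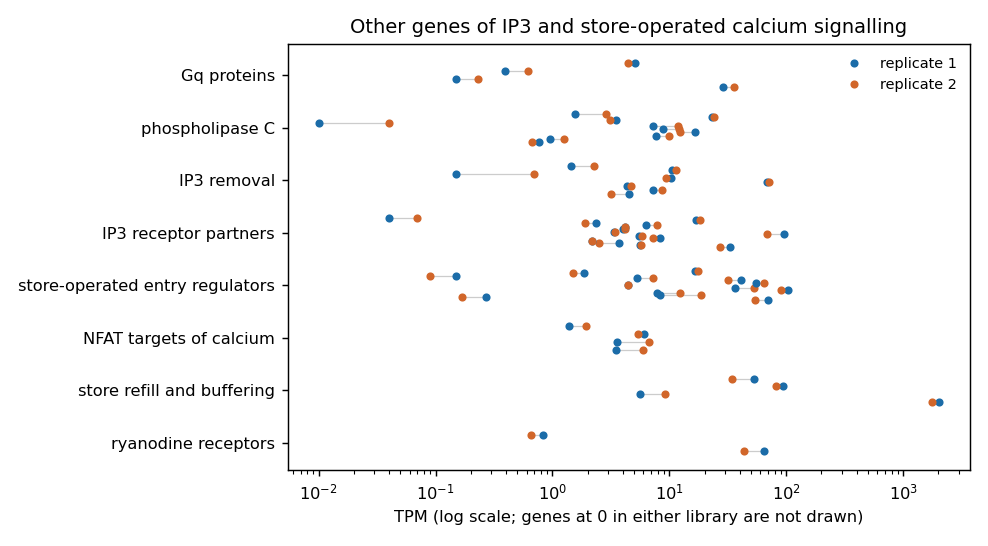
TPM of the other pathway genes by role on a log axis, replicate 1 in blue and replicate 2 in orange, each pair joined by a line. Roles run from Gq proteins to ryanodine receptors, and the highest gene is Atp2a2 at 2042 and 1764 TPM.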

How the data were processed

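Samples, their group and their replicate number follow the labels. Gene and transcript tables on mm10 with GENCODE M4, 1 pair per library, were deposited, per the notes beside the tables. No source used here names the aligner or the quantification program. The expected counts deposited by the authors are estimated fragments per feature, per the file headers. TPM was deposited both as the likelihood estimate, used throughout, and as a posterior mean, tried as an alternative. FPKM, also deposited, was tried as an alternative. For each transcript, the percent of its gene's TPM that it held, its posterior standard deviation and its credibility interval are the authors', per the file headers. The mm9 lists of contigs and junctions were not used here.

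Of 43346 gene identifiers 98.0% matched GENCODE M21 (GRCm38) by identifier, the source of symbols, positions, coding exons and the GC content of the longest transcript. Spike-ins and other entries that are no gene stayed out, and genes held 98.3% of counts in each library. The labels do not name the animals of each library. Counts of Xist and Y-linked genes differ too much for a shared pool, but with 1 library of each kind p-values and spreads measure these libraries only. Expected counts were rounded. TMM factors (0.965 and 1.04) came from edgeR 4.0.16 in R 4.3.3 over 15183 genes. With no residual degrees of freedom for edgeR's quasi-likelihood test, each gene with at least 20 counts over both libraries was compared by an exact two-sided binomial test given TMM-scaled sizes, and called at an adjusted p under 0.05 (Benjamini-Hochberg) and a fold of at least 2. The code was tested on simulated data. Intervals and floors (3 counts) cover counting error only. GC correction subtracted the median log2 ratio of 20 GC bins. Alternatives were DESeq2 1.42.0 size factors, total counts, other minimum counts and fold limits, other units and leaving out a replicate. Coding sequences were aligned globally with Biopython 1.88.

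The members, lists and tests were chosen with earlier results of these data known. Named were the 8 members, their transcripts with a share of at least 5% in either library, and of each pathway role the 2 genes of highest mean TPM and every called gene. Other software was scipy 1.17.1, pandas 2.3.3, numpy 2.4.6 and matplotlib 3.10.9 under Python 3.11.15.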

Additional observations from a re-analysis of the deposited data

How the results depend on the processing

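The count of 1 called member was 1 with DESeq2 size factors, with no minimum count and with a minimum of 100 counts, 2 with total counts (Orai2 and Itpr3), 2 with a fold limit of 1.5, 7 with no fold limit and 0 after GC correction. The 3 called pathway genes became 1 with a minimum of 100 counts, where fewer genes are tested, 15 with a fold limit of 1.5 and 45 with no fold limit. Over all genes 1909 were called (11.8% of those tested), against 933 (7.02%), 4378 (27.1%) and 10943 (67.8%) under those settings. With no fold limit, 45 of 58 pathway genes was a larger share than that of all genes. These shares are not matched for level, and with no fold limit smaller differences pass at higher counts. Of 61 pathway genes 49 reached 1 TPM in each library, beside 11214 of all 43346 genes, tested or not. Total counts moved the median log2 ratio of tested genes to -0.11, which bears on Plcg1 (-0.042) and Itpkb (-0.081), whose direction turned there. After GC correction the direction turned for Stim1 (0.10), Orai3 (0.013), Gna11 (0.21) and Inpp5a (0.23), none of them called.

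A pseudocount of 1 lowered the log2 ratios of Stim1 over Stim2 to 0.55 and of Orai1 over Orai2 to 3.20. Without mitochondrial genes mean TPM was 7.71 for Itpr1, 3.91 for Itpr2, 2.94 for Itpr3, 11.4 for Stim1, 7.27 for Stim2, 29.0 for Orai1 and 20.9 for Orai3. By posterior mean TPM Itpr2 had 2.63 TPM. The leading transcript held 57.2% of Itpr2, 80.2% of Stim2 and 98.2% of Orai3 by expected counts, and 38.5% of Itpr2 and 97.2% of Orai3 by posterior mean TPM. Leaving out a replicate gives the value of the other library, stated for each member, and leaves no comparison between libraries. No paired analysis was possible because the series has 1 group. The smallest members rest on 139 and 368 counts (Orai2), and the transcript shares of Itpr2 rest on counts with posterior standard deviations of up to 285.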
